A study of Mus musculus with 16 samples.

Results

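The Rab GTPases are small GTP-binding proteins that give each intracellular membrane its identity. They were taken as the protein-coding gene records whose symbol is Rab followed by a number and, in some, a letter and a further digit. This rule found 59 genes among 55573 gene records, of which 21900 were protein coding, and it used no measured value. The members and their roles were, however, chosen with earlier results of these data known. RNA was sequenced from RAW264.7 (TIB-71) cells, a mouse macrophage-like line grown in culture, whose sample source is labelled Myeloid. The 4 groups held 4 libraries each. The labels name no construct for the Parental group, whose library names start with the letters "Ctrl". ORP5/8 KD is a knockdown labelled for the lipid transfer proteins ORP5 and ORP8, which exchange phosphatidylserine for a phosphoinositide where the endoplasmic reticulum touches the plasma membrane. ATP11A/C KD is labelled for phosphatidylserine flippases, which move this lipid to the cytosolic side of the membrane, and CDC50A KD for CDC50A, the subunit that those flippases need to leave the endoplasmic reticulum. Knockdown library names start with the letters "sh", whose meaning the labels leave unstated, and no group is labelled as given a non-targeting construct. Any effect of carrying a construct therefore cannot be told apart from the knockdown in the comparisons with Parental. The labels number the libraries but do not say that they came from separate cultures, so a p-value reflects the scatter of these libraries only, and that scatter may be technical. The series title names phosphatidylserine clustering and LC3-associated phagocytosis, a form of uptake in which the autophagy protein LC3 is joined to the membrane of the phagosome.

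A Rab works as a switch. A guanine nucleotide exchange factor loads it with GTP at a membrane, the GTP-bound form recruits effectors that move, tether or fuse vesicles, and a GTPase-activating protein, in most cases one with a TBC domain, ends the cycle. GDP dissociation inhibitor then draws the prenylated, GDP-bound Rab off the membrane. On a macrophage phagosome, Rab5 marks the early stage and Rab7 the late stage that fuses with lysosomes, while Rab10, Rab11, Rab14, Rab20, Rab27, Rab31, Rab32 and Rab35 have also been placed on phagosomes or on the membranes that supply them.

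Total counts ran from 24020891 to 41543050 per library. The unit of level is CPM, the counts of a gene per 1000000 counts of the library after scaling by the trimmed mean of M values, and a mean comes with its SD over 4 libraries. Differences are log2 fold changes ± SE from the quasi-likelihood test of edgeR. The test gives no SE, so the SE is the absolute log2 fold change divided by the square root of its F statistic. The p-values were adjusted by the method of Benjamini and Hochberg over 13107 tested genes, with a call at an adjusted p under 0.05. The RNA of the targeted genes matched the labels in part. Osbpl8, which encodes ORP8, was at 337 ± 5.84 CPM (SD, n = 4) in Parental, 99.1 ± 8.17 under ORP5/8 KD, 127 ± 8.99 under ATP11A/C KD and 116 ± 4.41 under CDC50A KD, so that it was lower in every knockdown and not in the labelled one alone. Osbpl5, which encodes ORP5, stayed below the filter on low counts in the 4 groups. Atp11a fell from 61.4 ± 1.91 CPM in Parental to 21.4 ± 0.843 in ATP11A/C KD, with a log2 fold change of -1.52 ± 0.0437 (adjusted p = 1.09e-16). Tmem30a, which encodes CDC50A, fell from 162 ± 4.83 to 127 ± 5.80 CPM in CDC50A KD. Atp11a was also called lower in ORP5/8 KD, at -0.21 (adjusted p = 0.000344), and CDC50A KD, at -0.51 (adjusted p = 2.89e-09). Tmem30a was called lower in ORP5/8 KD, at -0.31 (adjusted p = 0.000283), and ATP11A/C KD, at -0.19 (adjusted p = 0.0196). The fall of Tmem30a was therefore, like that of Osbpl8, not in the labelled knockdown alone. Groups are named below by their labels. Of 10 macrophage markers, 9 exceeded 1 CPM in at least 1 library, and Mertk did not. The summed level of the macrophage markers was 11369.5 to 12114 CPM in Parental, 7319 to 7734 under ORP5/8 KD, 6134 to 6535 under ATP11A/C KD and 7189 to 7491 under CDC50A KD. Lyz2 made up most of the Parental sum, and without it the sum ran from 4368 to 4664 CPM in Parental, 3276 to 3489 under ORP5/8 KD, 3535 to 3992 under ATP11A/C KD and 4346 to 4548 under CDC50A KD, where it overlapped Parental. Of the 9 tested markers, 1 was higher and 8 lower in ORP5/8 KD, 1 and 7 in ATP11A/C KD, and 2 and 5 in CDC50A KD. Mitochondrial transcripts took 1.08 to 1.26% of counts in Parental, 1.52 to 1.77% under ORP5/8 KD, 1.36 to 1.78% under ATP11A/C KD and 1.42 to 1.76% under CDC50A KD. The marker lists of epithelium, fibroblasts, lymphocytes, and neutrophils with mast cells stayed below 1 CPM in every library. The 6 dendritic cell markers summed to 1.62 to 2.49 CPM in Parental, 1.87 to 2.95 under ORP5/8 KD, 3.22 to 3.81 under ATP11A/C KD, above Parental without overlap, and 2.28 to 2.68 under CDC50A KD. Of the 3 tested, Siglech was called higher in each knockdown and Zbtb46 in ATP11A/C KD, while Flt3 and Cd209a had 0 counts. Siglech was a low gene, with at most 37 counts in a library and 0.0361 to 1.09 CPM. Its ORP5/8 KD libraries overlapped Parental.

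Of the 59 Rab genes, 42 passed the filter on low counts and 17 did not. Rab6b, Rab9b, Rab27b, Rab3c, Rab36, Rab38, Rab39b and Rab44 had 0 counts in the 16 libraries, and a count of 0 allows up to 3 counts, which is 0.0722 to 0.125 CPM depending on the library and covers counting error alone. Rab3b, Rab17, Rab25, Rab26, Rab30, Rab33a, Rab37, Rab40b and Rab42 had at most 7 counts in any library. The genes without a count include the melanosome Rab, Rab38, and the paralogues Rab6b, Rab9b, Rab27b and Rab39b of genes that were detected. Levels were compared between genes as CPM per kilobase of merged exons (GENCODE M21, mm10). Merged exons count every annotated exon, whether or not it was expressed, and the order of the genes depends on that length. In CPM per kilobase the highest in Parental was Rab7, which drives the fusion of late endosomes and phagosomes with lysosomes, at 135 ± 2.02. Rab5c followed at 121 ± 1.56, Rab1b at 106 ± 5.62 and Rab1a at 80.0 ± 1.68. Rab31 was next, at 67.8 ± 1.49. The libraries of Rab7 did not overlap those of Rab5c, and each of these neighbours in the order was separated by more than their SDs. At the other end, Rab4a was at 0.927 ± 0.0605, Rab39 at 0.364 ± 0.106 and Rab15 at 0.0845 ± 0.0213 CPM per kilobase. Early endosomal, late endosomal and ER-to-Golgi genes thus stood among the highest, while Rab5b and Rab5a lay well below Rab5c, at 20.1 ± 0.535 and 9.74 ± 0.360.

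**Figure D1:**
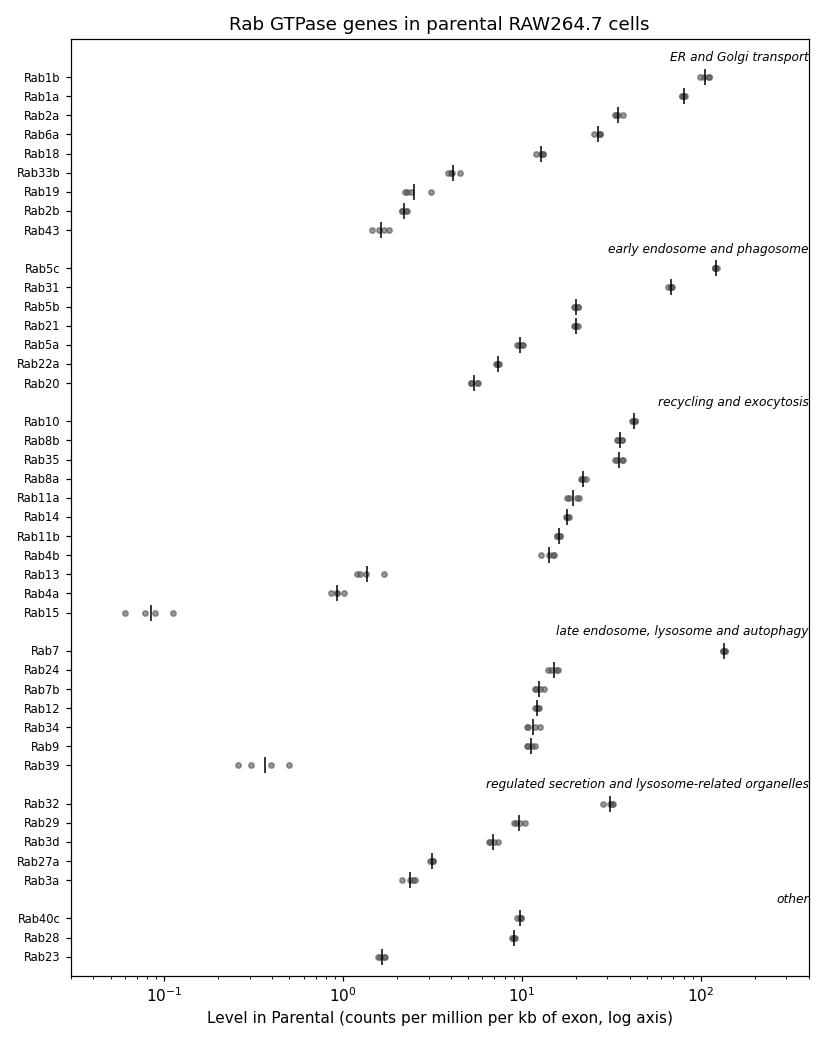
Level of each tested Rab gene in the Parental libraries, in CPM per kilobase of merged exons on a log axis, with 1 point per library, a tick at the mean, and genes grouped by role and ordered by mean within it. Rab7 stands highest and Rab15 lowest.

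The 42 tested Rab genes were mostly lower where they were called in a knockdown. For ORP5/8 KD against Parental, 3 were higher and 18 lower, 50% of the genes tested, where 46.2% of all tested genes were called, 22% higher and 24.3% lower. In ATP11A/C KD, 3 were higher and 22 lower, 59.5%, beside 37.6% of all genes, 17.4% higher and 20.2% lower. In CDC50A KD, 5 were higher and 20 lower, 59.5%, beside 50.4% of all genes, 24.3% higher and 26.1% lower. The share of Rab genes called at all in ORP5/8 KD was therefore close to the background, while the share called lower was 42.9%, 52.4% and 47.6% in the respective knockdowns. The median log2 fold change of the 42 genes was -0.15, -0.17 and -0.16, against 0.02, 0.01 and -0.01 over all tested genes. These 3 comparisons share the Parental libraries and are not independent of each other. Calls whose libraries did not overlap numbered 20, 21 and 22. That is 47.6%, 50% and 52.4% of the Rab genes tested, beside 40.3%, 30.2% and 44.1% of all genes. Most differences were small. Calls of at least 2-fold numbered 0, 3 (Rab39, Rab13 and Rab15) and 1 (Rab15) of the 42 genes in these comparisons, beside 6.54%, 4.98% and 6.41% of all genes. With upper-quartile scaling the split in ORP5/8 KD was 6 higher and 17 lower, and that of all genes moved with it, from 2878 higher and 3181 lower to 4270 and 2479, at a shift of the median by 0.074. In bulk RNA, fewer cells of a type and less RNA per cell cannot be told apart. The macrophage marker sum was lower and the mitochondrial share higher in every knockdown, but without Lyz2 the sum overlapped Parental in CDC50A KD. The dendritic cell marker sum, low in every group, was higher in ATP11A/C KD. The part of these differences in the Rab results was not tested.

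The summed level of the 59 genes ran from 3336 to 3389.6 CPM in the Parental libraries. It ran from 2877 to 2963 CPM under ORP5/8 KD, 2928 to 3051 under ATP11A/C KD and 3039 to 3155 under CDC50A KD. No knockdown library reached the lowest Parental library in this sum.

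**Figure D2:**
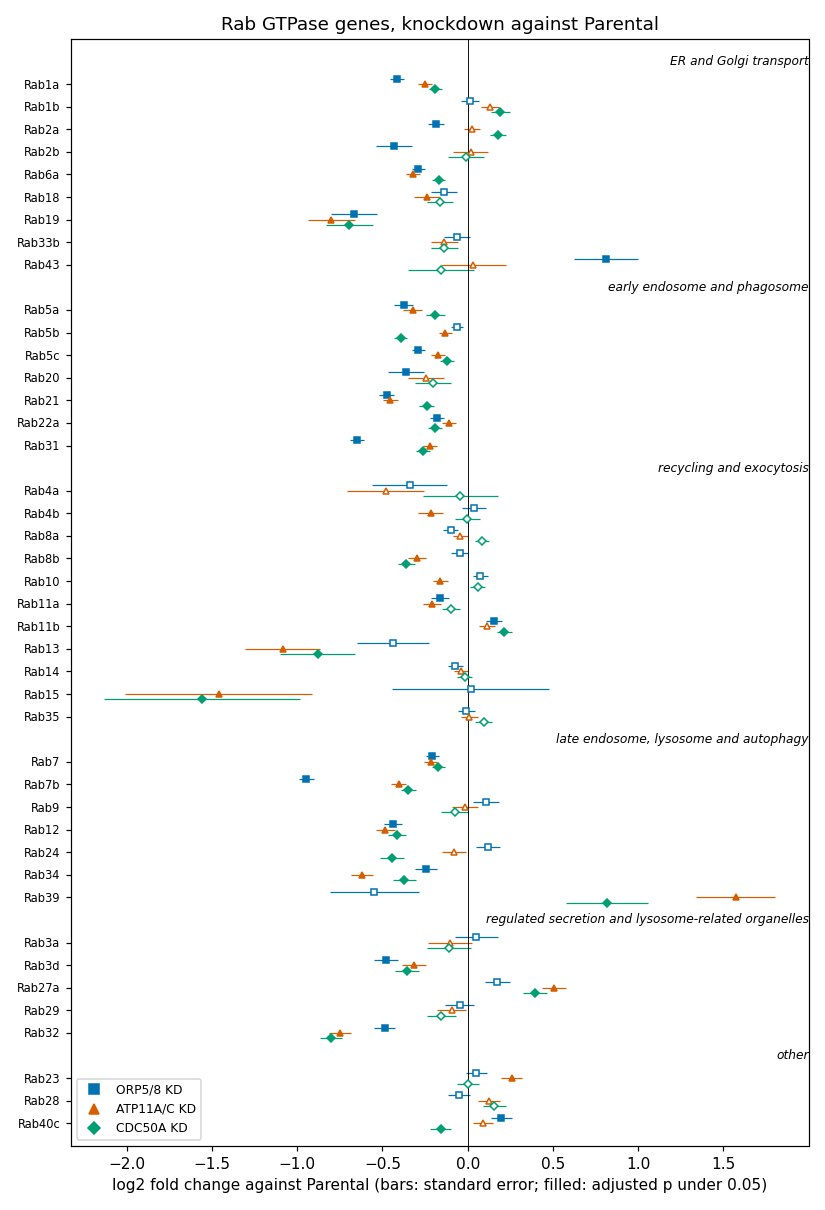
Log2 fold change of each tested Rab gene in each knockdown against Parental, with genes grouped by role, bars for the SE and filled points for calls at an adjusted p under 0.05. Calls below 0 outnumber those above 0 in each comparison, at 18, 22 and 20.

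Among the Rabs of early endosomes and phagosomes, 7 of 8 listed genes were tested. Each of the 3 knockdowns had 6 lower and 0 higher, with medians of -0.36, -0.22 and -0.20 in the order ORP5/8, ATP11A/C and CDC50A. That is 85.7% called in each, beside 46.2%, 37.6% and 50.4% of all genes. Because the roles were assigned with earlier results known, the shares by role here and below are descriptions and not tests. Rab31 (ENSMUSG00000056515.9, mm10 chromosome 17, 65651729 to 65772752, minus strand), which works between the trans-Golgi network and endosomes, had the lowest log2 fold change of the group in ORP5/8 KD. It read 251, 258, 264 and 261 CPM in the Parental libraries, 175, 163, 159 and 162 under ORP5/8 KD, 219.8, 213, 221 and 234 under ATP11A/C KD and 218, 217, 215 and 213 under CDC50A KD. The ORP5/8 KD libraries lay below every library of the other groups, and the ATP11A/C KD and CDC50A KD libraries lay between them and Parental. Against Parental it differed by log2 fold changes of -0.65 ± 0.0400 (adjusted p = 1.45e-11) for ORP5/8 KD, -0.22 ± 0.0398 (adjusted p = 0.000149) for ATP11A/C KD and -0.26 ± 0.0398 (adjusted p = 1.52e-05) for CDC50A KD. Rab21, an early endosomal Rab known for integrin traffic, read 98.1, 104, 100.1 and 101 CPM in the Parental libraries, 71.9, 75.0, 68.7 and 74.1 under ORP5/8 KD, 72.9, 70.1, 73.9 and 77.2 under ATP11A/C KD and 87.8, 88.5, 85.4 and 79.4 under CDC50A KD. Every knockdown library was below the Parental libraries, and ORP5/8 KD overlapped ATP11A/C KD. The fitted log2 fold changes were -0.48 ± 0.0441 (adjusted p = 1.24e-08) for ORP5/8 KD, -0.45 ± 0.0442 (adjusted p = 4.10e-08) for ATP11A/C KD and -0.24 ± 0.0441 (adjusted p = 0.000122) for CDC50A KD.

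The Rab5 paralogues, which govern the fusion of early endosomes and mark the early phagosome, moved unequally. Rab5a (ENSMUSG00000017831.8, mm10 chromosome 17, 53479234 to 53507680, plus strand) read 49.1, 52.8, 53.0 and 50.4 CPM in the Parental libraries, 39.5, 42.04, 38.4 and 38.5 under ORP5/8 KD, 36.8, 45.3, 42.6 and 39.8 under ATP11A/C KD and 45.9, 46.5, 43.8 and 43.9 under CDC50A KD. The Parental libraries were above every knockdown library. In log2 terms, Rab5a differed from Parental by -0.37 ± 0.0555 (adjusted p = 1.02e-05) for ORP5/8 KD, -0.32 ± 0.0556 (adjusted p = 9.64e-05) for ATP11A/C KD and -0.19 ± 0.0557 (adjusted p = 0.00721) for CDC50A KD. Rab5c read 264, 271, 264 and 264.9 CPM in the Parental libraries, 207, 224, 222 and 218 under ORP5/8 KD, 249.2, 235, 228 and 231 under ATP11A/C KD and 235, 241, 252 and 251 under CDC50A KD, with the ORP5/8 KD libraries lowest and no knockdown library as high as Parental. The test against Parental gave -0.29 ± 0.0396 (adjusted p = 3.57e-06) for ORP5/8 KD, -0.17 ± 0.0396 (adjusted p = 0.00147) for ATP11A/C KD and -0.12 ± 0.0396 (adjusted p = 0.0154) for CDC50A KD. The CDC50A KD call of Rab5c ended without Parental 2 or with no filter on low counts (adjusted p = 0.0573 to 0.0736). Rab5b (ENSMUSG00000000711.3, mm10 chromosome 10, 128677175 to 128696264, minus strand) showed another order and read 81.9, 82.8, 85.8 and 86.6 CPM in the Parental libraries, 82.2, 80.8, 78.6 and 81.1 under ORP5/8 KD, 80.3, 76.9, 75.1 and 75.4 under ATP11A/C KD and 64.1, 65.2, 64.9 and 62.7 under CDC50A KD. CDC50A KD was lowest without overlap, ATP11A/C KD was below Parental, and ORP5/8 KD overlapped Parental. Log2 fold changes of Rab5b came to -0.064 ± 0.0369 (adjusted p = 0.168) for ORP5/8 KD, -0.13 ± 0.0370 (adjusted p = 0.00789) for ATP11A/C KD and -0.39 ± 0.0374 (adjusted p = 2.73e-08) for CDC50A KD. The deposited counts of Rab5b carried decimals in the 16 libraries, which shows that some of its reads were shared out between genes.

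Rab20, which has been linked to phagosome maturation in macrophages, read 7.91, 7.83, 7.18 and 7.23 CPM in the Parental libraries, 5.36, 5.55, 6.66 and 5.88 under ORP5/8 KD, 6.46, 6.40, 5.95 and 6.70 under ATP11A/C KD and 6.85, 5.03, 6.49 and 7.62 under CDC50A KD. ORP5/8 KD and ATP11A/C KD lay below Parental, and CDC50A KD overlapped it. The test called it in ORP5/8 KD, and the log2 fold changes were -0.36 ± 0.105 (adjusted p = 0.00729) for ORP5/8 KD, -0.24 ± 0.105 (adjusted p = 0.0738) for ATP11A/C KD and -0.20 ± 0.105 (adjusted p = 0.118) for CDC50A KD. Rab20 was called in ATP11A/C KD with the compared groups fitted alone (adjusted p = 0.0403) and in CDC50A KD without CDC50A KD 4 (adjusted p = 0.0267). Rab22a, which acts on early endosomes, was at 52.6 ± 0.844 CPM (SD, n = 4) in Parental, 46.4 ± 0.900 under ORP5/8 KD, 48.7 ± 1.24 under ATP11A/C KD and 46.1 ± 2.49 under CDC50A KD. Its calls in ORP5/8 KD (log2 fold change -0.18 at adjusted p = 0.00151) and CDC50A KD (log2 fold change -0.19 at adjusted p = 0.000916) were of small size, and the call in ATP11A/C KD (log2 fold change -0.11 at adjusted p = 0.0469) ended without Parental 1, Parental 2, Parental 3, Parental 4, ATP11A/C KD 1, ATP11A/C KD 3 or ATP11A/C KD 4, with upper-quartile scaling, with no filter on low counts or with the compared groups fitted alone (adjusted p = 0.0624 to 0.171). Rab17 of this group was below the filter.

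Sequence upstream of the start was set beside these values for Rab5a and Rab34. They were picked by name among genes with a motif match, and the bases shown hold no annotated exon. RefSeq promoter windows of 300 bases on GRCm38.p6, from 250 before the start to 50 after it, matched 48 of the 59 genes in 60 windows. On both strands, CACGTG (the E-box form read by TFE3, TFEB and MITF) was found in 10.0% of the Rab windows and 7.15% of all 32851 windows, and TGANTCA (the AP-1 form) in 5.0% and 7.81%. GAGGAAGT (an ETS form read by PU.1) was found in 3.33% and 3.2%, the interferon response form in 1.67% and 3.44%, and TGACGTCA (the cyclic AMP response form) in 3.33% and 1.79%. The GC box GGGCGG was found in 68.3% and 35.7%. Windows were found for 13 of the 14 genes lower in each knockdown, and not for Rab7b. The GC box lay in 10 of these genes, beside 36 of the 48 matched Rab genes. Besides Rab5a and Rab34, the genes lower in each knockdown held CACGTG in Rab21, GAGGAAGT in Rab32 and the interferon response form in Rab19. CACGTG also lay in Rab20, Rab23, Rab24 and Rab27a, which were not lower in each knockdown. The same held for GAGGAAGT in Rab2b and TGANTCA in Rab15. TGANTCA in Rab39b and TGACGTCA in Rab25 lay in genes below the filter on low counts, which were not tested. No match of the motifs overlapped another in the sequences shown. The 250 bases before the start are shown for Rab5a, an early phagosomal Rab that was lower in each knockdown and holds both CACGTG and TGACGTCA, and for Rab34, a lysosome-positioning Rab that was lower in each knockdown and holds TGANTCA. Capitals mark matches to these motifs other than the GC box. The windows are chr17:53478984-53479233 for Rab5a and chr11:78188177-78188426 for Rab34, both on the plus strand. Rab34 has another RefSeq start, whose window from 78188498 to 78188797 holds no TGANTCA.
Rab5a: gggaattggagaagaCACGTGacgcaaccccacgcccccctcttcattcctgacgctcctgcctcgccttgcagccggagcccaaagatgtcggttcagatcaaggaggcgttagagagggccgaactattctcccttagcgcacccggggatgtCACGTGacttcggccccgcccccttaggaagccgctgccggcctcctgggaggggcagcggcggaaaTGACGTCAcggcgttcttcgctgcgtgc
Rab34: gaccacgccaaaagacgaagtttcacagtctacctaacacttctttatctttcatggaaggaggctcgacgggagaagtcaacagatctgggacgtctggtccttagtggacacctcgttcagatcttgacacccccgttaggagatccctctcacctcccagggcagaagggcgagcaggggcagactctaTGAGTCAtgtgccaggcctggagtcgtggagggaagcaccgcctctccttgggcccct
A match describes the letters in this window and is neither a bound site nor a cause.

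Among the Rabs of late endosomes, lysosomes and autophagy, 7 of 9 listed genes were tested. Of these, 4 were lower and 0 higher in ORP5/8 KD, 4 lower and 1 higher under ATP11A/C KD, and 5 lower and 1 higher under CDC50A KD, with medians of -0.25, -0.22 and -0.35. The shares called were 57.1%, 71.4% and 85.7%, beside 46.2%, 37.6% and 50.4% of all genes. Rab7b (ENSMUSG00000052688.12, mm10 chromosome 1, 131688695 to 131715439, plus strand), which returns cargo from endosomes to the trans-Golgi network and is known to limit Toll-like receptor signalling in macrophages, read 55.5, 57.9, 54.7 and 61.0 CPM in the Parental libraries, 29.4, 29.5, 30.03 and 30.02 under ORP5/8 KD, 43.9, 41.97, 44.0 and 43.4 under ATP11A/C KD and 44.3, 45.5, 47.2 and 43.2 under CDC50A KD. The ORP5/8 KD libraries were near 30 CPM and below all others, and those of ATP11A/C KD and CDC50A KD overlapped each other below Parental. Relative to Parental, the log2 fold changes were -0.95 ± 0.0447 (adjusted p = 1.62e-13) for ORP5/8 KD, -0.40 ± 0.0440 (adjusted p = 2.14e-07) for ATP11A/C KD and -0.35 ± 0.0441 (adjusted p = 1.45e-06) for CDC50A KD. Rab7 (ENSMUSG00000079477.9, mm10 chromosome 6, 87999106 to 88045270, minus strand) read 358, 355, 347 and 347 CPM in the Parental libraries, 298, 306, 297 and 316 under ORP5/8 KD, 304, 311, 286 and 310.4 under ATP11A/C KD and 302, 320.3, 318 and 308 under CDC50A KD. Parental was highest, and the 3 knockdowns overlapped one another. Against Parental it differed by log2 fold changes of -0.21 ± 0.0379 (adjusted p = 0.000114) for ORP5/8 KD, -0.22 ± 0.0380 (adjusted p = 0.000109) for ATP11A/C KD and -0.17 ± 0.0380 (adjusted p = 0.000714) for CDC50A KD, and its deposited counts carried decimals in the 16 libraries. Rab12, which sends transferrin receptor to degradation, read 36.6, 37.8, 37.4 and 35.7 CPM in the Parental libraries, 27.3, 24.7, 28.2 and 28.9 under ORP5/8 KD, 24.6, 26.3, 27.1 and 27.5 under ATP11A/C KD and 27.6, 28.2, 26.6 and 28.3 under CDC50A KD. It was below Parental in every knockdown library, with overlap among the knockdowns. The fitted log2 fold changes were -0.44 ± 0.0539 (adjusted p = 8.69e-07) for ORP5/8 KD, -0.48 ± 0.0542 (adjusted p = 3.25e-07) for ATP11A/C KD and -0.42 ± 0.0544 (adjusted p = 2.32e-06) for CDC50A KD.

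Rab34 (ENSMUSG00000002059.18, mm10 chromosome 11, 78188430 to 78192193, plus strand), which positions lysosomes and takes part in macropinocytosis, read 25.4, 28.3, 25.6 and 29.9 CPM in the Parental libraries, 21.5, 22.4, 23.1 and 25.3 under ORP5/8 KD, 16.9, 19.2, 17.2 and 17.8 under ATP11A/C KD and 21.0, 21.7, 20.3 and 21.5 under CDC50A KD. Here ATP11A/C KD was lowest and did not overlap any other group. In log2 terms, Rab34 differed from Parental by -0.25 ± 0.0651 (adjusted p = 0.0039) for ORP5/8 KD, -0.62 ± 0.0662 (adjusted p = 1.64e-07) for ATP11A/C KD and -0.37 ± 0.0660 (adjusted p = 8.99e-05) for CDC50A KD. Rab24 (ENSMUSG00000034789.8, mm10 chromosome 13, 55319743 to 55321946, minus strand), an autophagy-linked Rab, read 29.2, 28.1, 32.2 and 31.4 CPM in the Parental libraries, 33.7, 29.9, 33.2 and 34.3 under ORP5/8 KD, 27.4, 29.8, 29.2 and 28.0 under ATP11A/C KD and 23.7, 19.3, 20.5 and 24.7 under CDC50A KD. CDC50A KD was below the other groups, while ORP5/8 KD and ATP11A/C KD overlapped Parental. The test against Parental gave 0.12 ± 0.0702 (adjusted p = 0.182) for ORP5/8 KD, -0.078 ± 0.0708 (adjusted p = 0.418) for ATP11A/C KD and -0.45 ± 0.0722 (adjusted p = 3.17e-05) for CDC50A KD. Rab24 was called higher in ORP5/8 KD with upper-quartile scaling (adjusted p = 0.0308), at 0.19. Exons of Prelid1 lie antisense to Rab24, and the libraries were made with a stranded kit. Rab39 (ENSMUSG00000055069.3, mm10 chromosome 9, 53684110 to 53706232, minus strand) went the other way and read 0.769, 0.903, 1.48 and 1.18 CPM in the Parental libraries, 0.920, 0.770, 0.516 and 0.725 under ORP5/8 KD, 2.05, 3.36, 3.48 and 3.91 under ATP11A/C KD and 1.91, 2.45, 1.47 and 1.81 under CDC50A KD. The ATP11A/C KD libraries were above Parental and ORP5/8 KD, and CDC50A KD overlapped Parental at its lower end. Log2 fold changes of Rab39 came to -0.55 ± 0.263 (adjusted p = 0.0951) for ORP5/8 KD, 1.57 ± 0.231 (adjusted p = 1.30e-05) for ATP11A/C KD and 0.82 ± 0.241 (adjusted p = 0.00781) for CDC50A KD. It was a low gene, with 21 to 145 counts per library. Rab9, which recycles mannose 6-phosphate receptors, was at 19.5 CPM in Parental, 21.0 under ORP5/8 KD, 19.3 under ATP11A/C KD and 18.5 under CDC50A KD and was not called against Parental.

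Among the Rabs of regulated secretion and lysosome-related organelles, 5 of 12 were tested. In each of the 3 knockdowns 2 were lower, and the number higher was 0 in ORP5/8 KD and 1 in each of the others, with medians of -0.05, -0.10 and -0.15. In ORP5/8 KD this is 40%, below the 46.2% of all genes, and in the others 60%, beside 37.6% and 50.4%. Rab32 (ENSMUSG00000019832.5, mm10 chromosome 10, 10545002 to 10558265, minus strand), which builds lysosome-related organelles and restricts some intracellular bacteria, read 75.2, 75.0, 73.0 and 66.1 CPM in the Parental libraries, 53.9, 49.6, 49.9 and 53.1 under ORP5/8 KD, 41.1, 48.3, 39.3 and 43.6 under ATP11A/C KD and 43.1, 42.5, 42.8 and 37.7 under CDC50A KD. Parental was highest, ORP5/8 KD lay in between, and ATP11A/C KD and CDC50A KD overlapped each other below it. Relative to Parental, the log2 fold changes were -0.49 ± 0.0610 (adjusted p = 1.08e-06) for ORP5/8 KD, -0.75 ± 0.0617 (adjusted p = 3.07e-09) for ATP11A/C KD and -0.80 ± 0.0622 (adjusted p = 1.15e-09) for CDC50A KD. Rab3d, a Rab of secretory granules, read 27.7, 29.3, 27.4 and 30.7 CPM in the Parental libraries, 20.1, 21.9, 21.2 and 19.4 under ORP5/8 KD, 26.7, 21.4, 21.3 and 22.9 under ATP11A/C KD and 22.4, 23.1, 21.0 and 23.5 under CDC50A KD. It was lower in every knockdown library than in Parental, with overlap among the knockdowns. Against Parental it differed by log2 fold changes of -0.48 ± 0.0701 (adjusted p = 8.63e-06) for ORP5/8 KD, -0.32 ± 0.0700 (adjusted p = 0.00112) for ATP11A/C KD and -0.36 ± 0.0705 (adjusted p = 0.000261) for CDC50A KD. Rab27a (ENSMUSG00000032202.11, mm10 chromosome 9, 73044854 to 73097629, plus strand), which docks secretory lysosomes and exosome-bearing endosomes at the plasma membrane, was the exception in direction and read 11.8, 12.1, 12.3 and 12.3 CPM in the Parental libraries, 12.7, 14.9, 13.0 and 14.1 under ORP5/8 KD, 18.6, 17.3, 16.9 and 16.1 under ATP11A/C KD and 16.8, 17.2, 15.5 and 14.4 under CDC50A KD. Every knockdown library was above the Parental libraries, and ATP11A/C KD was above ORP5/8 KD. The fitted log2 fold changes were 0.17 ± 0.0723 (adjusted p = 0.0556) for ORP5/8 KD, 0.51 ± 0.0719 (adjusted p = 8.60e-06) for ATP11A/C KD and 0.39 ± 0.0726 (adjusted p = 0.000127) for CDC50A KD, so that ORP5/8 KD was not called. ORP5/8 KD was called without ORP5/8 KD 1 or ORP5/8 KD 3, with upper-quartile scaling, with a filter of 1 CPM in 4 libraries or with the compared groups fitted alone (adjusted p = 0.00696 to 0.0467). Rab3a and Rab29 were at 5.27 and 14.1 CPM in Parental and were called in no comparison with it. Rab29 was called lower in CDC50A KD without CDC50A KD 3 (adjusted p = 0.0495).

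**Figure D3:**
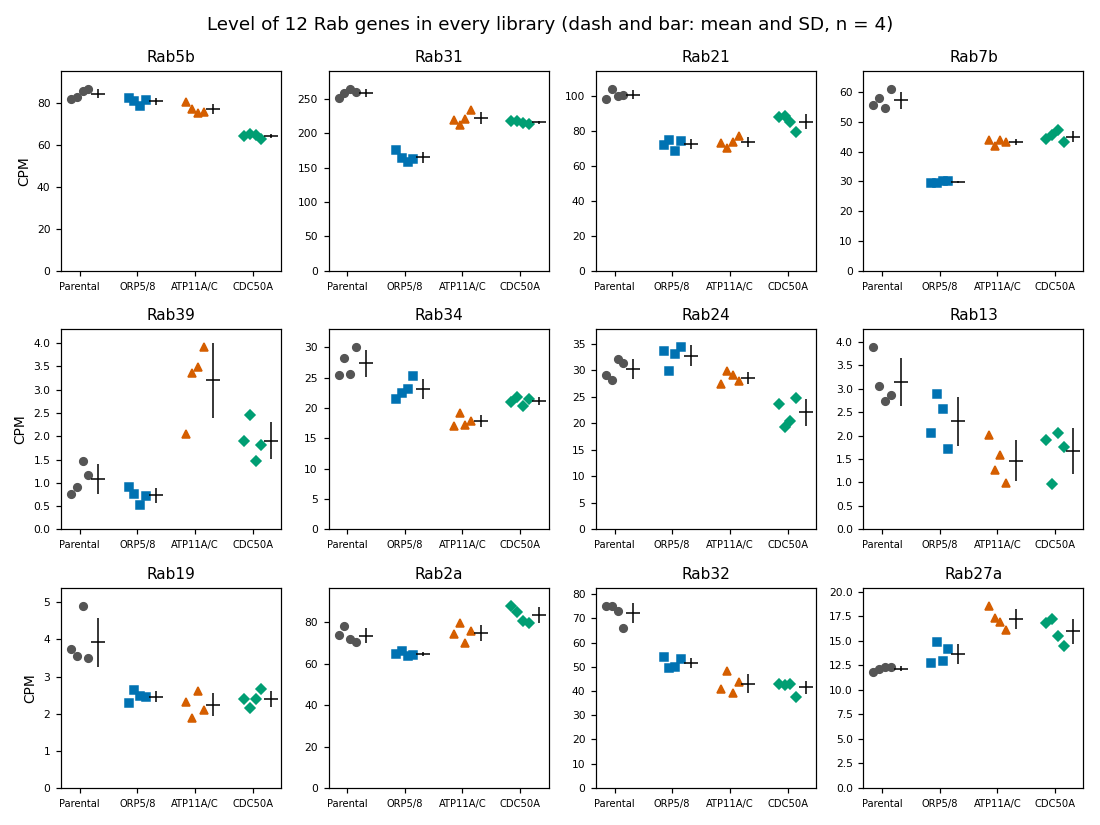
Level in CPM of 12 Rab genes in each of the 16 libraries, with 1 panel per gene, 1 point per library and a dash and bar for each group's mean and SD. Rab7b and Rab31 are lowest in ORP5/8 KD, Rab34 in ATP11A/C KD and Rab24 and Rab5b in CDC50A KD, while Rab39 and Rab27a are highest in ATP11A/C KD.

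Among the Rabs of transport between the endoplasmic reticulum and the Golgi, 9 of 13 were tested. Of these, 5 were lower and 1 higher in ORP5/8 KD, 4 lower and 0 higher under ATP11A/C KD, and 3 lower and 2 higher under CDC50A KD, with medians of -0.19, -0.14 and -0.16. Of the 9, 66.7%, 44.4% and 55.6% were called, beside 46.2%, 37.6% and 50.4% of all genes. Rab1a, which carries vesicles from the endoplasmic reticulum to the Golgi, read 298, 308, 311 and 299.8 CPM in the Parental libraries, 231, 227, 218 and 235 under ORP5/8 KD, 248, 264, 249.7 and 262 under ATP11A/C KD and 266, 283, 264 and 254 under CDC50A KD. ORP5/8 KD was lowest without overlap. In log2 terms, Rab1a differed from Parental by -0.42 ± 0.0405 (adjusted p = 2.68e-08) for ORP5/8 KD, -0.25 ± 0.0405 (adjusted p = 4.57e-05) for ATP11A/C KD and -0.19 ± 0.0405 (adjusted p = 0.000572) for CDC50A KD. The paralogue Rab1b, which serves the same step, differed from it and was at 241 ± 12.8 CPM (SD, n = 4) in Parental, 243 ± 10.9 under ORP5/8 KD, 264 ± 19.8 under ATP11A/C KD and 275 ± 12.8 under CDC50A KD. Of its comparisons with Parental, CDC50A KD was called higher (log2 fold change 0.19 ± 0.0535 at adjusted p = 0.0051), and the log2 fold changes in ORP5/8 KD and ATP11A/C KD were 0.012 (adjusted p = 0.879) and 0.13 (adjusted p = 0.0583). Rab1b was called in ATP11A/C KD without Parental 1, Parental 2, ATP11A/C KD 2 or ATP11A/C KD 3, with upper-quartile scaling or by the DESeq2 Wald test (adjusted p = 0.0138 to 0.0488). Rab2a (ENSMUSG00000047187.9, mm10 chromosome 4, 8535644 to 8607778, plus strand), a Rab of the Golgi that also joins late endosomes to lysosomes, moved in opposite directions and read 73.8, 78.3, 71.97 and 70.4 CPM in the Parental libraries, 64.9, 66.1, 63.8 and 64.2 under ORP5/8 KD, 74.4, 79.6, 70.1 and 75.8 under ATP11A/C KD and 88.0, 85.1, 80.7 and 79.8 under CDC50A KD. ORP5/8 KD was below Parental and CDC50A KD above it, without overlap, and ATP11A/C KD overlapped Parental. The test against Parental gave -0.19 ± 0.0463 (adjusted p = 0.00231) for ORP5/8 KD, 0.025 ± 0.0462 (adjusted p = 0.715) for ATP11A/C KD and 0.18 ± 0.0463 (adjusted p = 0.00293) for CDC50A KD.

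Rab2b read 8.89, 9.498, 9.34 and 8.83 CPM in the Parental libraries, 6.55, 7.35, 5.78 and 7.38 under ORP5/8 KD, 8.36, 8.68, 9.07 and 10.9 under ATP11A/C KD and 8.06, 10.2, 8.09 and 10.2 under CDC50A KD. The ORP5/8 KD libraries were below the rest, and the other 3 groups overlapped. Log2 fold changes of Rab2b came to -0.43 ± 0.106 (adjusted p = 0.00197) for ORP5/8 KD, 0.017 ± 0.104 (adjusted p = 0.918) for ATP11A/C KD and -0.0076 ± 0.105 (adjusted p = 0.96) for CDC50A KD. Rab6a, which returns vesicles from endosomes and the Golgi toward the endoplasmic reticulum, read 100.1, 102, 101 and 94.7 CPM in the Parental libraries, 84.0, 81.3, 79.3 and 80.8 under ORP5/8 KD, 76.7, 81.3, 79.7 and 80.9 under ATP11A/C KD and 88.3, 92.5, 87.7 and 84.9 under CDC50A KD. Every knockdown library was below Parental. Relative to Parental, the log2 fold changes were -0.29 ± 0.0394 (adjusted p = 3.36e-06) for ORP5/8 KD, -0.32 ± 0.0395 (adjusted p = 1.29e-06) for ATP11A/C KD and -0.17 ± 0.0395 (adjusted p = 0.00115) for CDC50A KD. Rab19 (ENSMUSG00000029923.4, mm10 chromosome 6, 39381175 to 39390380, plus strand) was among the lower-expressed genes and read 3.75, 3.56, 4.90 and 3.495 CPM in the Parental libraries, 2.29, 2.64, 2.48 and 2.44 under ORP5/8 KD, 2.33, 1.89, 2.62 and 2.11 under ATP11A/C KD and 2.39, 2.15, 2.39 and 2.68 under CDC50A KD. The knockdown libraries overlapped one another and lay below Parental. Against Parental it differed by log2 fold changes of -0.67 ± 0.134 (adjusted p = 0.000346) for ORP5/8 KD, -0.80 ± 0.136 (adjusted p = 8.09e-05) for ATP11A/C KD and -0.70 ± 0.137 (adjusted p = 0.000257) for CDC50A KD. Rab18, a Rab of the endoplasmic reticulum and lipid droplets, was at 87.1 ± 3.36 CPM (SD, n = 4) in Parental, 79.0 ± 7.79 under ORP5/8 KD, 73.9 ± 9.12 under ATP11A/C KD and 77.8 ± 5.09 under CDC50A KD. It was called lower in ATP11A/C KD (log2 fold change -0.24 ± 0.0759 at adjusted p = 0.0173), a call that ended without ATP11A/C KD 1 or ATP11A/C KD 4 (adjusted p = 0.0547 to 0.0638). It was called lower in CDC50A KD with a filter of 1 CPM in 4 libraries or with the compared groups fitted alone (adjusted p = 0.00781 to 0.0496). Rab33b, a Golgi Rab that binds the LC3-joining protein ATG16L1, was at 14.5 CPM in Parental, 13.9 under ORP5/8 KD, 13.2 under ATP11A/C KD and 13.2 under CDC50A KD and was not called. It was called lower in CDC50A KD without CDC50A KD 4 (adjusted p = 0.048).

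Rab43 (ENSMUSG00000030055.16, mm10 chromosome 6, 87788853 to 87812164, minus strand) was counted at 8.03, 9.33, 9.95 and 8.71 CPM in the Parental libraries, 12.4, 17.5, 18.8 and 14.5 under ORP5/8 KD, 13.2, 6.94, 8.71 and 7.82 under ATP11A/C KD and 10.5, 5.12, 9.22 and 7.01 under CDC50A KD. ORP5/8 KD did not overlap Parental or CDC50A KD, and the log2 fold changes were 0.81 ± 0.187 (adjusted p = 0.00118) for ORP5/8 KD, 0.034 ± 0.192 (adjusted p = 0.914) for ATP11A/C KD and -0.16 ± 0.195 (adjusted p = 0.528) for CDC50A KD. This value is uncertain, because Rab43 shares 4164 bases of exon on the same strand with Gm45140, and the deposited counts of Rab43 carried decimals in the 16 libraries. The sum of both genes was 26.5 ± 1.72 CPM in Parental, 37.0 ± 1.29 under ORP5/8 KD, 24.2 ± 3.15 under ATP11A/C KD and 23.3 ± 0.993 under CDC50A KD, so ORP5/8 KD was the highest group in the sum as well.

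Among the Rabs of recycling and exocytosis, 11 of 12 were tested. The ORP5/8 KD comparison had 1 lower and 1 higher, in ATP11A/C KD 6 were lower and 0 higher, and in CDC50A KD 3 were lower and 1 higher, with medians of -0.05, -0.21 and -0.02. Called shares were 18.2%, 54.5% and 36.4%, so that 2 of the 3 were below the 46.2%, 37.6% and 50.4% of all genes. Rab8b, which serves exocytosis, read 172, 161, 172 and 163 CPM in the Parental libraries, 178, 161, 146 and 162 under ORP5/8 KD, 132, 135, 135 and 142 under ATP11A/C KD and 133, 137, 128 and 123 under CDC50A KD. ATP11A/C KD and CDC50A KD lay below Parental and ORP5/8 KD. The fitted log2 fold changes were -0.047 ± 0.0508 (adjusted p = 0.474) for ORP5/8 KD, -0.30 ± 0.0510 (adjusted p = 8.38e-05) for ATP11A/C KD and -0.36 ± 0.0512 (adjusted p = 6.67e-06) for CDC50A KD. Rab10, a Rab of exocytosis and recycling and a substrate of the kinase LRRK2, read 150.2, 149.9, 145 and 147 CPM in the Parental libraries, 156, 161, 149 and 158 under ORP5/8 KD, 132, 135, 127 and 136 under ATP11A/C KD and 162, 163, 152 and 141 under CDC50A KD. ATP11A/C KD was below the other 3 groups. In log2 terms, Rab10 differed from Parental by 0.075 ± 0.0448 (adjusted p = 0.182) for ORP5/8 KD, -0.16 ± 0.0450 (adjusted p = 0.00773) for ATP11A/C KD and 0.058 ± 0.0449 (adjusted p = 0.292) for CDC50A KD. The ATP11A/C KD call ended without ATP11A/C KD 3 (adjusted p = 0.0511), and Rab10 was called higher in ORP5/8 KD with upper-quartile scaling (adjusted p = 0.00806). Rab13 (ENSMUSG00000027935.14, mm10 chromosome 3, 90213695 to 90226385, plus strand), which serves tight junctions and membrane recycling, was a low gene and read 3.88, 3.07, 2.74 and 2.86 CPM in the Parental libraries, 2.05, 2.89, 2.56 and 1.72 under ORP5/8 KD, 2.004, 1.26, 1.58 and 0.992 under ATP11A/C KD and 1.91, 0.963, 2.05 and 1.76 under CDC50A KD. ATP11A/C KD and CDC50A KD lay below Parental, and ORP5/8 KD overlapped it. The test against Parental gave -0.44 ± 0.211 (adjusted p = 0.0946) for ORP5/8 KD, -1.09 ± 0.222 (adjusted p = 0.000543) for ATP11A/C KD and -0.88 ± 0.221 (adjusted p = 0.00233) for CDC50A KD. Rab13 was called in ORP5/8 KD with the compared groups fitted alone (adjusted p = 0.0489).

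Rab11a, which marks the recycling endosome, read 53.4, 60.5, 54.9 and 62.1 CPM in the Parental libraries, 53.3, 51.3, 48.9 and 52.8 under ORP5/8 KD, 49.1, 53.5, 46.9 and 50.4 under ATP11A/C KD and 54.99, 53.8, 51.2 and 55.5 under CDC50A KD. ORP5/8 KD lay just below Parental, and the other knockdowns overlapped it. Log2 fold changes of Rab11a came to -0.16 ± 0.0531 (adjusted p = 0.0153) for ORP5/8 KD, -0.21 ± 0.0533 (adjusted p = 0.00364) for ATP11A/C KD and -0.10 ± 0.0534 (adjusted p = 0.127) for CDC50A KD, and the ORP5/8 KD call ended without Parental 2, Parental 4 or ORP5/8 KD 3 or with upper-quartile scaling (adjusted p = 0.0723 to 0.17). Rab11b moved the other way, at 98.1 ± 2.26 CPM (SD, n = 4) in Parental, 109 ± 6.18 under ORP5/8 KD, 106 ± 5.73 under ATP11A/C KD and 114 ± 3.47 under CDC50A KD, and was called higher in ORP5/8 KD (log2 fold change 0.15 at adjusted p = 0.0109) and CDC50A KD (log2 fold change 0.22 at adjusted p = 0.000644). Its deposited counts carried decimals in the 16 libraries. Rab11b was called in ATP11A/C KD without Parental 1, Parental 2, ATP11A/C KD 3 or ATP11A/C KD 4, with upper-quartile scaling or by the DESeq2 Wald test (adjusted p = 0.0207 to 0.0496). Rab14, which acts between the Golgi and endosomes and is found on phagosomes, read 239, 246, 248 and 242 CPM in the Parental libraries, 236, 233, 222 and 236 under ORP5/8 KD, 226, 249.4, 232 and 241 under ATP11A/C KD and 247, 254, 241 and 222 under CDC50A KD. ORP5/8 KD lay below Parental, and ATP11A/C KD and CDC50A KD overlapped it. Its log2 fold changes of -0.073 ± 0.0434 (adjusted p = 0.179) for ORP5/8 KD, -0.039 ± 0.0434 (adjusted p = 0.519) for ATP11A/C KD and -0.017 ± 0.0434 (adjusted p = 0.77) for CDC50A KD were not called. Rab35, which runs the fast recycling route and shapes actin at the phagocytic cup, read 102, 93.1, 95.7 and 104 CPM in the Parental libraries, 94.1, 98.7, 104 and 95.6 under ORP5/8 KD, 108, 95.4, 97.3 and 95.6 under ATP11A/C KD and 103, 107, 107 and 105 under CDC50A KD. The 4 groups overlapped. Its log2 fold changes of -0.008 ± 0.0483 (adjusted p = 0.911) for ORP5/8 KD, 0.0092 ± 0.0484 (adjusted p = 0.906) for ATP11A/C KD and 0.093 ± 0.0485 (adjusted p = 0.117) for CDC50A KD were not called.

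Rab4b, a Rab of fast recycling, was at 28.0 ± 1.95 CPM (SD, n = 4) in Parental, 28.8 ± 1.66 under ORP5/8 KD, 24.1 ± 1.77 under ATP11A/C KD and 27.9 ± 2.61 under CDC50A KD. Its call in ATP11A/C KD (log2 fold change -0.22 ± 0.0718 at adjusted p = 0.0205) ended without Parental 1, Parental 2, ATP11A/C KD 3 or ATP11A/C KD 4 (adjusted p = 0.0643 to 0.0899). Rab8a was at 103 CPM in Parental, 95.8 under ORP5/8 KD, 99.7 under ATP11A/C KD and 109 under CDC50A KD and was not called against Parental. Rab8a was called in ORP5/8 KD by the DESeq2 Wald test or with the compared groups fitted alone (adjusted p = 0.0381 to 0.0452) and in CDC50A KD without Parental 2 (adjusted p = 0.0469). Rab15 had at most 19 counts in a library, at 0.390 CPM in Parental, 0.396 under ORP5/8 KD, 0.132 under ATP11A/C KD and 0.149 under CDC50A KD. The fitted log2 fold changes of Rab15 were -1.46 ± 0.548 (adjusted p = 0.041) in ATP11A/C KD and -1.56 ± 0.573 (adjusted p = 0.0284) in CDC50A KD, with overlapping libraries. The first call ended without Parental 2, Parental 3, Parental 4, ATP11A/C KD 1, ATP11A/C KD 2 or ATP11A/C KD 4 or with the compared groups fitted alone (adjusted p = 0.0528 to 0.112), and the second ended without Parental 2, Parental 4, CDC50A KD 1, CDC50A KD 3 or CDC50A KD 4 (adjusted p = 0.0538 to 0.0858). Rab4a, at 1.63 CPM in Parental, was not called.

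The other 3 tested genes have roles in cilia or protein turnover, and 1 of the 3 was called in each knockdown. That is 33.3% in each, below the 46.2%, 37.6% and 50.4% of all genes. Rab23, which restrains Hedgehog signalling, read 14.0, 13.0, 14.2 and 13.3 CPM in the Parental libraries, 14.1, 14.9, 14.1 and 13.3 under ORP5/8 KD, 15.9, 17.5, 16.1 and 15.7 under ATP11A/C KD and 13.4, 13.6, 13.5 and 14.0 under CDC50A KD. The ATP11A/C KD libraries were above the other groups. Relative to Parental, the log2 fold changes were 0.05 ± 0.0615 (adjusted p = 0.538) for ORP5/8 KD, 0.26 ± 0.0613 (adjusted p = 0.00209) for ATP11A/C KD and 0.0015 ± 0.0623 (adjusted p = 0.987) for CDC50A KD. Rab40c, which carries a SOCS box that binds ubiquitin ligase subunits, read 29.0, 30.1, 30.5 and 30.5 CPM in the Parental libraries, 31.5, 35.8, 35.1 and 35.3 under ORP5/8 KD, 33.4, 31.7, 31.5 and 31.1 under ATP11A/C KD and 25.2, 24.6, 27.5 and 30.04 under CDC50A KD. ORP5/8 KD lay above Parental, and CDC50A KD overlapped Parental at its upper end. Against Parental it differed by log2 fold changes of 0.20 ± 0.0599 (adjusted p = 0.0102) for ORP5/8 KD, 0.09 ± 0.0603 (adjusted p = 0.261) for ATP11A/C KD and -0.16 ± 0.0611 (adjusted p = 0.0351) for CDC50A KD. The CDC50A KD call ended without Parental 2, Parental 3, Parental 4, CDC50A KD 1 or CDC50A KD 2 or with no filter on low counts (adjusted p = 0.0728 to 0.0898). Rab28, a ciliary Rab, was at 40.6 CPM in Parental, 39.2 under ORP5/8 KD, 44.4 under ATP11A/C KD and 45.4 under CDC50A KD. It was not called against Parental and was called higher in CDC50A KD without CDC50A KD 4, with upper-quartile scaling, with no filter on low counts, with the replicate block or with the compared groups fitted alone (adjusted p = 0.0135 to 0.0495).

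The knockdowns were next compared with each other, in contrasts that leave out the Parental mean. The Parental libraries still entered the filter, the scaling and the estimate of the spread, because the fit held the 16 libraries. In ORP5/8 KD against ATP11A/C KD, 9 Rab genes were higher and 10 lower, 45.2% beside 38.7% of all tested genes, of which 18.2% were higher and 20.4% lower. For ORP5/8 KD against CDC50A KD, 8 were higher and 14 lower, 52.4% beside 56.8%, of which 27.5% were higher and 29.4% lower. In CDC50A KD against ATP11A/C KD, 7 were higher and 5 lower, 28.6% beside 26.2%, of which 13.5% were higher and 12.7% lower. The median log2 fold changes of the Rab genes were 0.03, -0.05 and 0.04, beside -0.0029, -0.0063 and 0.0067 over all genes. With upper-quartile scaling the splits of ORP5/8 KD were 11 higher and 8 lower against ATP11A/C KD and 9 higher and 9 lower against CDC50A KD, where all genes gave 3095 higher and 2018 lower, and 4463 higher and 2891 lower. Calls without overlap numbered 16, 20 and 9 in these 3 comparisons. That is 38.1%, 47.6% and 21.4% of the 42 tested Rab genes, beside 30.4%, 48.6% and 18.8% of all genes. Calls of at least 2-fold numbered 2, 2 and 0 of the 42, beside 4.57%, 8.13% and 1.67% of all genes.

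Rab39 gave the greatest difference among the genes with calls that did not overlap, at -2.12 ± 0.236 (adjusted p = 3.07e-07) for ORP5/8 KD against ATP11A/C KD and -1.36 ± 0.247 (adjusted p = 8.69e-05) against CDC50A KD. The calls of at least 2-fold were Rab39 and Rab15 in both comparisons of ORP5/8 KD. Rab15, with its few counts, was higher there, and its call ended against ATP11A/C KD without ORP5/8 KD 2, ORP5/8 KD 3, ORP5/8 KD 4, ATP11A/C KD 1, ATP11A/C KD 2 or ATP11A/C KD 4 (adjusted p = 0.0584 to 0.0815) and against CDC50A KD without ORP5/8 KD 4, CDC50A KD 1, CDC50A KD 3 or CDC50A KD 4 (adjusted p = 0.0511 to 0.0679). The Rab39 call between CDC50A KD and ATP11A/C KD, with -0.76 ± 0.216 (adjusted p = 0.0139), ended without ATP11A/C KD 4 or CDC50A KD 3 (adjusted p = 0.0516 to 0.0519). Rab7b was lower in ORP5/8 KD, with log2 fold changes of -0.54 ± 0.0448 (adjusted p = 3.44e-09) against ATP11A/C KD and -0.60 ± 0.0450 (adjusted p = 5.18e-10) against CDC50A KD. Between CDC50A KD and ATP11A/C KD it was not called (log2 fold change 0.055 ± 0.0443 at adjusted p = 0.38). Rab31 showed the same order, at -0.43 ± 0.0399 (adjusted p = 2.10e-08), -0.39 ± 0.0400 (adjusted p = 6.26e-08) and -0.041 ± 0.0398 (adjusted p = 0.478). Rab2b, at -0.45 ± 0.105 (adjusted p = 0.00168) and -0.43 ± 0.106 (adjusted p = 0.00181), was likewise lower in ORP5/8 KD than in either other knockdown. Rab1a was lower in ORP5/8 KD too, at -0.17 (adjusted p = 0.00243) and -0.23 (adjusted p = 7.92e-05).

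Rab24 and Rab5b set CDC50A KD apart. Rab24 was lower in CDC50A KD than in ATP11A/C KD, at a log2 difference of -0.37 ± 0.0719 (adjusted p = 0.000946), and higher in ORP5/8 KD than in CDC50A KD, at 0.56 ± 0.0714 (adjusted p = 1.16e-06). The call between ORP5/8 KD and ATP11A/C KD, with 0.20 ± 0.0700 (adjusted p = 0.0314), ended without ORP5/8 KD 1, ORP5/8 KD 3, ORP5/8 KD 4, ATP11A/C KD 1 or ATP11A/C KD 4 (adjusted p = 0.0548 to 0.0902). Rab5b was lower in CDC50A KD than in ATP11A/C KD, at a log2 difference of -0.26 ± 0.0373 (adjusted p = 5.07e-05), and ORP5/8 KD exceeded CDC50A KD by 0.33 ± 0.0372 (adjusted p = 2.35e-07). Rab34 and Rab23 set ATP11A/C KD apart. Rab34 was higher in ORP5/8 KD (log2 fold change 0.37 ± 0.0661 at adjusted p = 0.00011) and in CDC50A KD (log2 fold change 0.25 ± 0.0670 at adjusted p = 0.00955) than in ATP11A/C KD. Rab23 was lower in ORP5/8 KD (log2 fold change -0.21 ± 0.0605 at adjusted p = 0.00887) and in CDC50A KD (log2 fold change -0.26 ± 0.0613 at adjusted p = 0.00434) than in ATP11A/C KD, and the first of these calls ended with no filter on low counts (adjusted p = 0.0507). Rab40c was lower in CDC50A KD than in ATP11A/C KD (log2 fold change -0.25 ± 0.0606 at adjusted p = 0.005). Rab43, with the overlap given above, was higher in ORP5/8 KD than in CDC50A KD (log2 fold change 0.97 ± 0.188 at adjusted p = 0.00018).

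**Figure D4:**
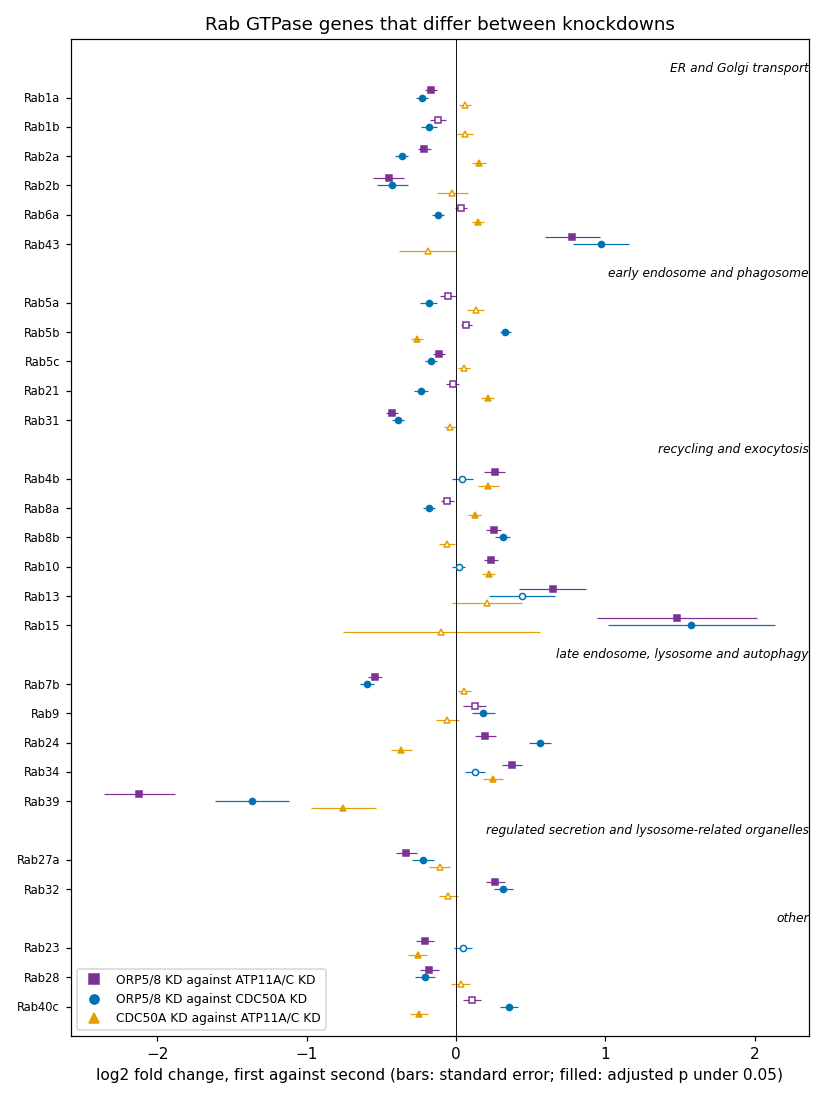
Log2 fold change ± SE in the 3 comparisons between knockdowns, for the Rab genes called in at least 1 of them, with filled points for calls at an adjusted p under 0.05. Rab39 and Rab7b lie farthest below 0 in the ORP5/8 KD comparisons, and Rab24 and Rab5b lie below 0 in CDC50A KD against ATP11A/C KD.

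Within 8 pairs of close paralogues, the balance of the transcripts per kilobase of exon differed from Parental in some and overlapped it in others, described without a test because the pairs were chosen for their relation. The size of each percentage, and of its differences in percentage points, depends on the merged exon lengths, while its ratio between groups does not. By CPM alone, Parental had Rab1b below Rab1a, at 241 and 304, and Rab11b above Rab11a, at 98.1 and 57.7. Rab7b was 9.20% ± 0.518 of Rab7 in Parental (mean ± SD, n = 4), 5.52% ± 0.153 under ORP5/8 KD, 8.09% ± 0.444 under ATP11A/C KD and 8.15% ± 0.223 under CDC50A KD. Rab5b was 16.6% ± 0.552 of Rab5c in Parental, 19.4% ± 0.973 under ORP5/8 KD, 17.1% ± 0.172 under ATP11A/C KD and 13.7% ± 0.565 under CDC50A KD. ORP5/8 KD and CDC50A KD thus lay on opposite sides of Parental for this pair. Rab1b was 132% ± 8.63 of Rab1a in Parental and 178% ± 12.3, 173% ± 17.4 and 173% ± 13.3 in the knockdowns, in the order used for the previous pairs. Rab8b was 161% ± 9.20 of Rab8a in Parental and 167% ± 14.4, 135% ± 10.6 and 118% ± 7.59 in the same order. Rab11b was 83.3% ± 6.64 of Rab11a in Parental and 103% ± 8.99, 104% ± 7.43 and 103% ± 6.34. The other 3 pairs moved little or overlapped. Rab2b was 6.36% ± 0.220 of Rab2a in Parental and 5.35% ± 0.565, 6.34% ± 0.841 and 5.62% ± 0.850 in the knockdowns, with ORP5/8 KD alone below Parental without overlap. For Rab5a per Rab5c these values were 8.04% ± 0.267 and 7.58% ± 0.352, 7.29% ± 0.841 and 7.68% ± 0.479, and each knockdown overlapped Parental. For Rab4b per Rab4a, a gene of low level, they were 1543% ± 196 and 2047% ± 325, 1951% ± 561 and 1643% ± 452, also with overlap in each.

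**Figure D5:**
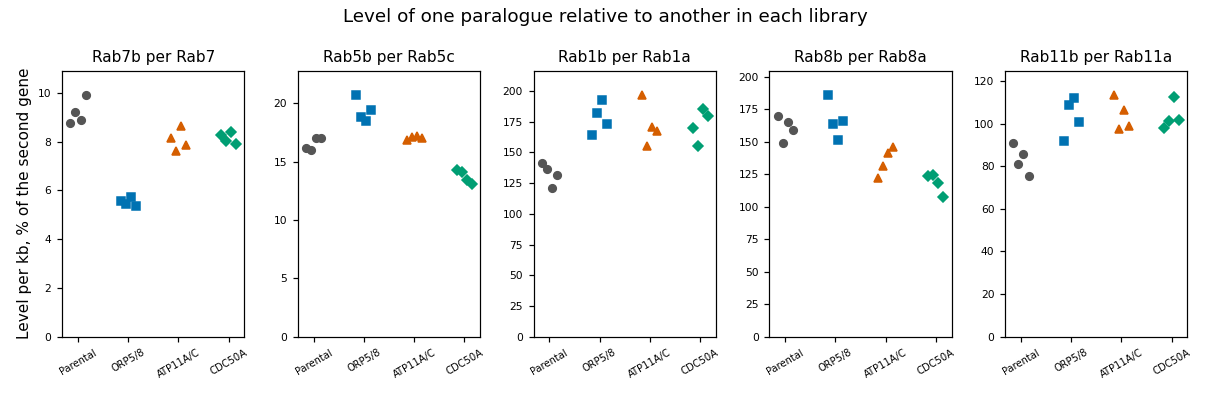
Level per kilobase of the first paralogue as a percentage of the second in each library for 5 of the 8 pairs, with a panel per pair and 1 point per library. Rab7b per Rab7 is lowest in ORP5/8 KD, and Rab5b per Rab5c is highest in ORP5/8 KD and lowest in CDC50A KD.

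The proteins that load, unload and read Rabs were followed as 127 listed genes, of which 111 were tested. For ORP5/8 KD 23 were higher and 25 lower, in ATP11A/C KD 16 were higher and 36 lower, and in CDC50A KD 14 were higher and 45 lower. Their median log2 fold changes were -0.02, -0.06 and -0.12. The shares called, 43.2%, 46.8% and 53.2%, stood beside 46.2%, 37.6% and 50.4% of all genes. The lists were also drawn up with earlier results known, so shares by list are descriptions too. Among 32 tested TBC domain genes, most of which encode GTPase-activating proteins, 8 were higher and 6 lower under ORP5/8 KD, 5 and 11 under ATP11A/C KD, and 3 and 14 under CDC50A KD, which is 43.8%, 50% and 53.1% called. Tbc1d9 fell from 3.92 ± 0.391 CPM in Parental to 1.00 ± 0.149 in ATP11A/C KD (log2 fold change -1.96 ± 0.143 at adjusted p = 4.44e-10) and 0.617 ± 0.0949 in CDC50A KD (log2 fold change -2.66 ± 0.157 at adjusted p = 1.42e-11). Tbc1d2, which acts on Rab7, fell from 22.3 ± 2.23 to 10.9 ± 0.990 and 10.1 ± 0.635 CPM in the same groups, with log2 fold changes of -1.03 (adjusted p = 1.80e-08) and -1.14 (adjusted p = 4.71e-09). Rabgap1l was at 2.85 ± 0.131 CPM in Parental, and its log2 fold changes were -0.97 (adjusted p = 0.00262), -1.70 (adjusted p = 2.42e-05) and -2.21 (adjusted p = 1.37e-06) in the knockdowns, in the same order as the counts above. Tbc1d4, which acts on Rab10 in glucose transporter traffic, rose in ORP5/8 KD from 16.7 ± 0.473 to 28.3 ± 2.30 CPM (log2 fold change 0.76 ± 0.0724 at adjusted p = 1.72e-08). There too, Tbc1d16 rose from 152 ± 1.69 to 235 ± 8.61 CPM and Sgsm3 from 39.7 ± 1.54 to 60.7 ± 5.70, with log2 fold changes of 0.63 (adjusted p = 1.58e-08) and 0.61 (adjusted p = 9.15e-08). Between knockdowns, 17 TBC domain genes were higher and 4 lower in ORP5/8 KD than in CDC50A KD, and 13 higher and 3 lower than in ATP11A/C KD. That is 53.1% higher and 12.5% lower beside 27.5% and 29.4% of all genes, and 40.6% and 9.38% beside 18.2% and 20.4%. Usp6nl rose from 29.0 ± 0.797 to 39.1 ± 3.22 CPM in ATP11A/C KD (log2 fold change 0.43 at adjusted p = 5.18e-06), and Tbc1d24 fell from 27.3 ± 1.65 to 19.2 ± 0.493 in CDC50A KD (log2 fold change -0.51 at adjusted p = 9.73e-07).

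The 35 exchange factors gave 9 higher and 8 lower under ORP5/8 KD, 8 and 8 under ATP11A/C KD, and 8 and 12 under CDC50A KD. The shares of 48.6%, 45.7% and 57.1% were near or somewhat above the background of 46.2%, 37.6% and 50.4%. Dennd4c, a DENN domain exchange factor for Rab10, fell from 84.9 ± 2.87 CPM to 57.2 ± 2.92 in ATP11A/C KD (log2 fold change -0.57 at adjusted p = 1.20e-08) and 52.2 ± 3.48 in CDC50A KD (log2 fold change -0.70 at adjusted p = 4.70e-10). Rab3gap2, which with Rab3gap1 acts as an exchange factor for Rab18, fell from 186 ± 4.05 to 135 ± 4.93 CPM in ATP11A/C KD (log2 fold change -0.46 at adjusted p = 4.33e-09). Dennd1b, at 53.8 CPM in Parental, had log2 fold changes of -0.48 (adjusted p = 2.19e-06) in ORP5/8 KD and -0.41 (adjusted p = 2.20e-05) in ATP11A/C KD. The Rab5 exchange factors of the RIN family differed in direction. Rin1 fell from 6.84 ± 0.842 to 4.45 ± 0.658 CPM in ORP5/8 KD (log2 fold change -0.62 at adjusted p = 0.00042) and 4.11 ± 0.751 in CDC50A KD (log2 fold change -0.73 at adjusted p = 9.71e-05). Rin3 rose from 34.8 ± 2.25 to 51.7 ± 3.85 CPM in ORP5/8 KD (log2 fold change 0.57 at adjusted p = 4.88e-05). Rab3il1 fell to 51.5 ± 3.42 CPM in ATP11A/C KD (log2 fold change -0.44 at adjusted p = 1.11e-06). In CDC50A KD, Dennd6b fell to 2.41 ± 0.662 CPM (log2 fold change -0.81 at adjusted p = 0.00185) with overlapping libraries, and Dennd5b, a low gene, rose to 1.80 ± 0.430 CPM (log2 fold change 0.90 at adjusted p = 0.00511).

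Of the 36 tested effectors, 5 were higher and 9 lower under ORP5/8 KD, 3 and 15 under ATP11A/C KD, and 2 and 15 under CDC50A KD, which is 38.9%, 50% and 47.2% beside the same backgrounds. Micall2, an effector of Rab13 and Rab8, fell from 9.67 ± 0.508 CPM to 3.52 ± 0.383, 4.85 ± 0.775 and 5.64 ± 0.280 in the knockdowns as ordered here, with log2 fold changes of -1.45 (adjusted p = 3.05e-10), -0.99 (adjusted p = 1.40e-07) and -0.78 (adjusted p = 3.29e-06). Ankfy1, a Rab5 effector, fell from 353 ± 4.89 to 233 ± 9.34 CPM in ORP5/8 KD (log2 fold change -0.59 at adjusted p = 3.79e-11), as did Ocrl, a phosphoinositide phosphatase that binds Rabs, from 48.4 ± 2.29 to 33.5 ± 3.17 (log2 fold change -0.53 at adjusted p = 2.42e-07). Rab11fip5 and Wdr44, which bind Rab11, fell to 42.2 and 9.39 CPM in ATP11A/C KD (log2 fold changes -0.53 at adjusted p = 0.000116 and -0.47 at adjusted p = 0.000194). Rab11fip5 and the Rab5 effector Appl2 fell to 40.2 and 21.3 CPM in CDC50A KD (log2 fold changes -0.61 at adjusted p = 1.97e-05 and -0.53 at adjusted p = 5.13e-06). Rilpl1, which binds LRRK2-phosphorylated Rabs, rose in the 3 knockdowns (log2 fold changes 0.58 at adjusted p = 0.00031, 0.48 at adjusted p = 0.00298 and 0.43 at adjusted p = 0.00457).

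The 8 genes of GDP dissociation inhibition, escort and prenylation gave 1 higher and 2 lower under ORP5/8 KD, 0 and 2 under ATP11A/C KD, and 1 and 4 under CDC50A KD. The shares called were 37.5%, 25% and 62.5%, beside 46.2%, 37.6% and 50.4% of all genes, so that only CDC50A KD was above its background. Chm, which encodes a Rab escort protein, fell from 34.4 ± 1.37 CPM to 27.4 ± 1.08, 28.0 ± 1.88 and 28.4 ± 2.66 (log2 fold changes -0.33 at adjusted p = 0.000207, -0.30 at adjusted p = 0.000828 and -0.28 at adjusted p = 0.000969). Its relative Chml fell in ATP11A/C KD (log2 fold change -0.26 at adjusted p = 0.0163) and CDC50A KD (log2 fold change -0.41 at adjusted p = 0.000301). Rabggtb, the catalytic subunit of the Rab prenylating enzyme, fell from 50.2 ± 4.04 to 38.6 ± 3.08 CPM in CDC50A KD (log2 fold change -0.37 at adjusted p = 0.000457). Its partner subunit Rabggta rose in ORP5/8 KD (log2 fold change 0.19 at adjusted p = 0.0273) with overlapping libraries, and Rabif, a nucleotide-free Rab chaperone, fell there (log2 fold change -0.29 at adjusted p = 0.000154).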

How the data were processed

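Per the submitters' processing notes, reads were handled with Trim Galore 0.5.0, STAR 2.7.5a, Picard and RSEM on mm10; their order, and the gene annotation used, are not given in the sources used here. Per the labels' protocols, libraries came from a stranded mRNA kit. The authors deposited RSEM expected counts per gene, in which reads shared between genes are divided, so that 4.64% of values carry decimals; they were rounded to whole numbers here. The 92 ERCC spike-in records had 0 counts and were left out of library sizes. The description of Parental 3 gives its column another leading number than the table does, and the column was matched by library name. No column of other samples was present.

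R 4.3.3 with edgeR 4.0.16 and limma 3.58.1 was used. Genes passed filterByExpr with a minimum count of 10, library sizes were scaled by TMM, and 1 quasi-likelihood model was fitted over the 16 libraries with group as the only term (biological coefficient of variation 6.86%). The tested genes held 99.97% of counts. The procedure was tested on simulated data. Alternatives were scaling by relative log expression in edgeR, the Wald test of DESeq2 1.42.0, upper-quartile scaling and no low-count filter. Further ones were 1 CPM in 4 libraries, the compared groups alone, a replicate block, and leaving out each library. The members, roles and gene lists were chosen with earlier results of these data known. Values in every library are given for up to 12 Rab genes per comparison with Parental and up to 5 per comparison between knockdowns, with the largest change among calls without overlap and 1 CPM or more in the higher group, and for 12 phagosome-related members. Of each partner list, up to 4 called genes per comparison with Parental are named, ranked by size of change among genes that reach 1 CPM; a few genes of these lists and of the targets are not reported here. Libraries of a group differed by more than counting noise (chi-square per degree of freedom of 4.72 or more), so none was counted as a duplicate. Gene positions and exon lengths come from GENCODE M21 and promoter windows from RefSeq.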

Additional observations from a re-analysis of the deposited data

Results flagged for a closer look

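Over 28 Rab genes and 4 groups, 112 sets of 4 libraries were examined for a library whose gap to its nearest neighbour exceeded Dixon's 95% critical share of the range, which chance gives in about 1 set in 20, and 5 were found. Rab14 was at 222 CPM in ORP5/8 KD 3, where the other libraries were at 233 to 236. Rab32 was at 37.7 CPM in CDC50A KD 4, below 42.5 to 43.1 in the others. Rab35 was at 108 CPM in ATP11A/C KD 1, above 95.4 to 97.3. Rab40c was at 31.5 CPM in ORP5/8 KD 1, below 35.1 to 35.8. Rab5c was at 271 CPM in Parental 2, above 263.7 to 264.9. For Rab5c this is the library whose removal ended the CDC50A KD call.

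Rab2a and Rab40c were called against Parental in opposite directions in ORP5/8 KD and CDC50A KD, and the difference between these groups was tested directly with edgeR. It was -0.37 ± 0.0462 (adjusted p = 1.11e-06) for Rab2a, lower in ORP5/8 KD, and 0.36 ± 0.0603 (adjusted p = 4.06e-05) for Rab40c, higher in ORP5/8 KD. The 4 libraries of each group did not overlap for either gene. The CDC50A KD call of Rab40c against Parental ended without Parental 2, Parental 3, Parental 4, CDC50A KD 1 or CDC50A KD 2 or with no filter on low counts (adjusted p = 0.0728 to 0.0898).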

How the results depend on the processing

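The calls that stayed in all 15 alternatives numbered 20 of 21 in ORP5/8 KD, 20 of 25 in ATP11A/C KD and 22 of 25 in CDC50A KD against Parental. Between knockdowns they numbered 13 of 19 (ORP5/8 KD against ATP11A/C KD), 15 of 22 (ORP5/8 KD against CDC50A KD) and 7 of 12 (CDC50A KD against ATP11A/C KD). No called Rab gene changed direction in them. With upper-quartile scaling, the Rab genes called higher in ORP5/8 KD against Parental numbered 6 in place of 3, those higher in ATP11A/C KD 5 in place of 3, and those lower in ORP5/8 KD against CDC50A KD 9 in place of 14. The DESeq2 Wald test also called 5 higher in ATP11A/C KD. With the compared groups alone, 4 in place of 7 were higher in CDC50A KD against ATP11A/C KD. The cause of these shifts was not tested.

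Leaving out 1 library gave 3 to 5 Rab genes higher in ATP11A/C KD against Parental, with 5 without Parental 1, Parental 2 or ATP11A/C KD 3. It gave 4 to 8 higher in CDC50A KD against ATP11A/C KD, with 4 without ATP11A/C KD 3, CDC50A KD 1 or CDC50A KD 2. The values that changed sign were not called. In ORP5/8 KD, upper-quartile scaling gave Rab5b 0.0099, Rab14 0.00059 and Rab35 0.066. Leaving out 1 library, Rab35 ranged there from -0.023 to 0.0275, above 0 without Parental 1, Parental 4, ORP5/8 KD 1, ORP5/8 KD 2 or ORP5/8 KD 4. In ATP11A/C KD, Rab35 ranged from -0.039 to 0.040, below 0 without Parental 2, Parental 3 or ATP11A/C KD 1. In CDC50A KD, Rab14 ranged from -0.055 to 0.0076, above 0 without CDC50A KD 4.

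Libraries of the same number did not deviate together. Of 24 pairs, 2 had a correlation over 0.1, and 7 correlated best with their own number. With the replicate block, Rab genes numbered 3 higher and 18 lower in ORP5/8 KD, 3 and 22 in ATP11A/C KD and 6 and 20 in CDC50A KD against Parental. Between knockdowns the block gave 9 and 10 for ORP5/8 KD against ATP11A/C KD, 8 and 14 for ORP5/8 KD against CDC50A KD, and 6 and 5 for CDC50A KD against ATP11A/C KD. Depth limits the statements on Rab15, Rab39 and the 17 untested genes. The same holds for Rab13, with 22 to 126 counts per library, Rab4a, with 32 to 75, and Rab19, with 49 to 136.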
